A study of Mus musculus with 17 samples.

Results

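The ischemia main effect in mouse brain was measured as the difference between all 6 ischemic pools and all 6 non-ischemic pools, averaged over an arm without and an arm with the antioxidant AEOL 10150. The pools were chosen by their sample titles and make up 12 of the 17 arrays of the series. Each array carried RNA pooled from 6 brains, taken from grey and white matter supplied by the middle cerebral artery. The non-ischemic side held 3 control pools, given saline, and 3 drug control pools, given AEOL 10150, both collected 6 h after the injection. The ischemic side held 3 ischemic pools and 3 treated ischemic pools, with the artery territory ischemic for 1 h and reperfused for 6 h, the treated ones with AEOL 10150, a catalytic antioxidant. The labels give no strain, sex, age or dose, and they leave unsaid what, if anything, mice of the untreated ischemic pools received. The title and the description of 2 pools name different drug treatments (drug control pool 1 and treated ischemic pool 1), but for all 12 pools both name the same side of the ischemia comparison. The other 5 arrays, single treated ischemic brains, have no non-ischemic counterpart of 1 brain and stayed out of the comparison.

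When blood flow to the middle cerebral artery territory stops and returns, neurons, glia and vessel cells meet loss of energy, calcium entry, oxidants and misfolded proteins. Cells answer within hours with immediate early genes, which need no new protein to be transcribed, with heat shock genes driven by heat shock factor 1, and with cytokines, chemokines and adhesion molecules, many of them targets of NF-kB. Tissue of the whole territory holds the densely packed striatum and the cortex above it, and its RNA mixes dying, surviving and invading cells.

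Some of the genes that rose carry the textbook binding letters of these responses near their start sites. The stretches below come from RefSeq promoters on the mouse build GRCm38.p6, are written 5′ to 3′ on the gene's strand and have the matched letters in capitals. They were picked to show 1 heat shock element pair in a near-identical gene pair, the same letters in Jun, and the elements named for cyclic AMP and NF-kB in Dusp1 and Cxcl1, which passed the test only with all 12 pools.
Hspa1a, chr17:34972233-34972280, minus strand: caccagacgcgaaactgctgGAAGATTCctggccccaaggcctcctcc
Hspa1b, chr17:34959315-34959362, minus strand: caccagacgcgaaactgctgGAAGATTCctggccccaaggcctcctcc
Jun, chr4:95052323-95052370, minus strand: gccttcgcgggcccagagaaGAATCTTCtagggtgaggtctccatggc
Dusp1, chr17:26508588-26508635, minus strand: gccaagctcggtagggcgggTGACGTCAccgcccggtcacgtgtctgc
Cxcl1, chr5:90891154-90891203, plus strand: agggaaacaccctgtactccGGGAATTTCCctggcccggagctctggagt
The Hspa1a and Hspa1b stretches are letter for letter the same, with the element from 104 to 97 bases before the start site. Jun holds its element from 128 to 121 bases before the start, Dusp1 from 143 to 136 and Cxcl1 from 71 to 62. Of 41 genes with a rise, 32 had a promoter in the table, 34 promoters in all, each reaching from 250 bases before to 50 bases after the start. Both strands were searched. The heat shock element of 2 units, GAANNTTC, was in 6 of the 34 (17.6%) in 5.57% of the 7517 promoters of genes tested here and in 7.86% of all 32851 promoters of the table. In 3 of the 6, those of Hspa1a, Hspa1b and Jun, it lay before the start, and in those of Bag3 and Hsph1 after it. Its 3-unit form, which always contains a 2-unit one, was in 2 (5.88%), both of them alternative starts of Hsph1 with the element after the start, in 0.519% of tested and in 0.603% of all promoters. The AP-1 site TGANTCA was in 5 (14.7%), against 5.97% of tested and 7.81% of all promoters, and the NF-kB site in 6 (17.6%), against 7.04% and 5.8%. The cyclic AMP element TGACGTCA was in 1 (2.94%), against 2.71% and 1.79%. The CArG box of the serum response element was in 0 of the 34 promoters, in 1.64% of tested and in 1.63% of all. Aldh1a3, Ccl2, Cd14, Egr1, Ier2, Klf10, Nfkbiz, Phlda1 and Rrad had no promoter to search. The counts cover neither these genes nor letters more than 250 bases before a start. These matches describe letters in a window and no more.

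Averaged over the arms, chaperone, immediate early and some inflammatory transcripts were higher in the ischemic pools, and 1 probe set was lower. Of 10259 probe sets tested, 45 were higher in the ischemic pools (0.439%) and 1 was lower (0.00975%) at an adjusted p under 0.05 in limma. The 45 rises stand for 41 named genes, and 1 further probe set (160469_at) pairs with several symbols. With the brightest probe set of each gene alone, 37 of 7280 genes were higher (0.508%). Without the drug, 3 against 3 pools gave 22 rises (0.214%), and with the drug 9 (0.0877%), with no fall in either arm at that threshold. The 9 were probe sets of Hspa1a, Hspa1b, Dnajb1, Bag3, Fos, Egr1, Nr4a1, Atf3 and Gadd45g, with no cytokine, chemokine or adhesion gene among them. At an unadjusted p under 0.05 the 6 against 6 comparison had 329 higher and 176 lower probe sets. In all, 24 rises (0.234%) and the fall passed only with 6 against 6 pools and in neither arm alone.

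The 24 rises found only with all pools ran from 1.65-fold to 11.2-fold, with a median of 2.66-fold. Their standard errors had a median of 0.21 on the log2 scale with 12 pools, against 0.30 within the arm without the drug. The number of pools fixes that gap, since both come from 1 fit with the same estimate of spread. Within the arm without the drug their adjusted p ran from 0.055 to 1, and within the drug arm from 0.0943 to 1. The 6 against 6 value is the mean of the arms' values, so the arms are its components and no second test of it. For 3 of these 24 genes, Atf3, Gadd45b and Bag3, another probe set had passed within an arm, which leaves 21 genes with no call in either arm.

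**Figure D1:**
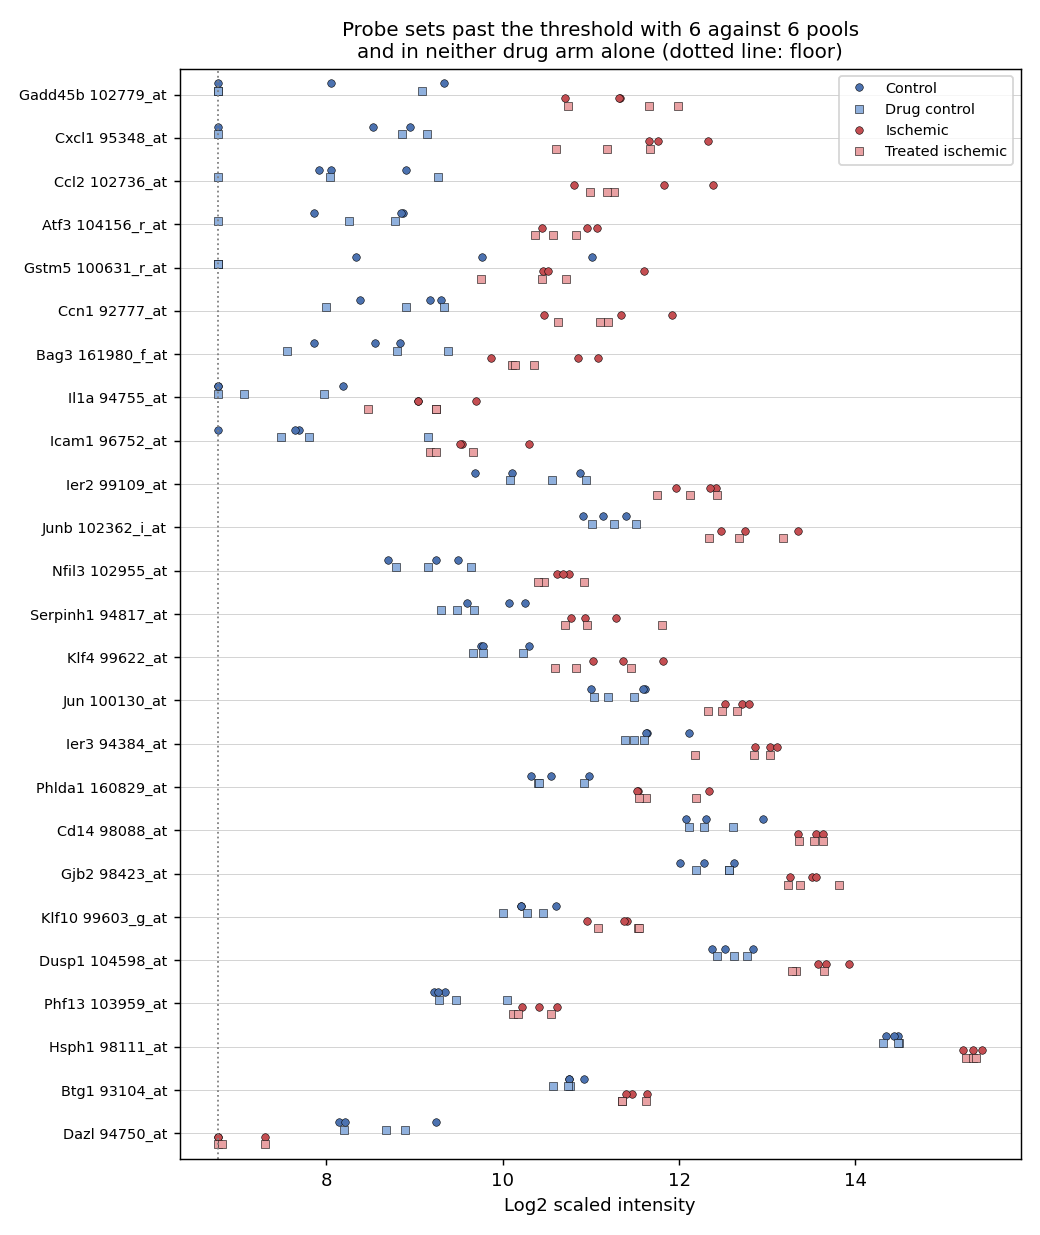
Log2 scaled intensity of the 25 probe sets past the threshold with 6 against 6 pools and in neither arm alone, 1 point for each of 12 pools, blue for non-ischemic and red for ischemic, circles without and squares with the drug; the dotted line is the floor of 6.77. The probe sets were picked by p from these same values. The sides do not overlap for 23 of 24 rises and for Dazl, the fall, whereas the Gstm5 probe set overlaps.

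The 6 values of a side did not overlap those of the other side for 85 higher (0.829%) and 29 lower (0.283%) of the probe sets tested. Among the 45 rises 42 did not overlap, among the 24 found only with all pools 23 did not, and Dazl did not. The remaining 43 higher and 28 lower probe sets without overlap missed the threshold. The calls were picked by p from these same values, so their lack of overlap is no further support for them.

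Hspa1b and Hspa1a had the highest folds of the 45 rises. Hspa1b, an inducible Hsp70 chaperone, lay between 10.72 and 12.55 (median 10.99) on the log2 scale of scaled intensity in the non-ischemic pools and between 15.75 and 16.25 (median 16.04) in the ischemic pools. The sides lay over 3 log2 units apart with no overlap, and the difference was 4.59 ± 0.36 (SE; 24.1-fold, limma adjusted p = 0.000318). Its near-identical neighbour Hspa1a went from 11.25 to 13.00 (median 12.02) to 16.25 to 16.46 (median 16.28), a difference of 4.21 ± 0.30 (18.4-fold, adjusted p = 0.000282). The array's probes may not tell these genes apart, so they are best read as one signal.

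Dnajb1, the Hsp40 partner that loads clients on Hsp70, lay between 11.34 and 12.17 (median 11.62) without ischemia and between 13.31 and 14.01 (median 13.91) with it, a rise of 2.08 ± 0.20 (adjusted p = 0.00106). Bag3, a cochaperone that links Hsp70 to autophagy, rose by 1.79 ± 0.17 on probe set 96167_at (adjusted p = 0.00106). Its second probe set, 161980_f_at, passed only with all pools, at 1.90 ± 0.33 (adjusted p = 0.0429). All chaperones named so far were also past the threshold within both arms, the second Bag3 probe set excepted.

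Hsph1 and Serpinh1 are the chaperone rises found only with 6 against 6 pools. Hsph1, an Hsp110 protein that exchanges nucleotide on Hsp70, was already bright and very even without ischemia, from 14.31 to 14.50 (median 14.46), and lay from 15.22 to 15.44 (median 15.33) with it. That is a rise of 0.90 ± 0.11 (1.86-fold, adjusted p = 0.00554), by 0.91 without and 0.88 with the drug, the smallest adjusted p among the 25. Serpinh1, the collagen chaperone of the endoplasmic reticulum, went from a median of 9.63 (9.30 to 10.26) to 10.95 (10.71 to 11.80), a rise of 1.35 ± 0.21 (adjusted p = 0.0221). Its arms stood at 1.02 and 1.67, and the difference between the arms had an unadjusted p of 0.161.

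Of 32 listed heat shock proteins and cochaperones, 27 genes were tested by their brightest probe set, 5 rose (Hspa1a, Hspa1b, Hsph1, Dnajb1 and Bag3) and none fell. Their median difference was 0.32, against 0.01 over all genes tested. Of all 7280 genes tested, counted in the same way, 3750 were higher and 3530 lower, and 37 (0.508%) passed as rises. Of the 27, 23 were higher and 4 lower. Among those that did not pass, Hspa8, the constitutive Hsc70, stood at 0.24, Hsp90aa1 at 0.33 and the mitochondrial Hspd1 at 0.54 (adjusted p = 0.0852). Of the unfolded protein response none of 22 tested genes passed (median 0.26), with Hspa5, the BiP chaperone, at 0.57 (adjusted p = 0.235).

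Transcription factors of the immediate early class had the most rises among the 38 lists. All 23 tested members of that list were higher in the ischemic pools on the rescaled arrays, against 3750 of all 7280 genes tested. In that list 10 passed the threshold, against 37 (0.508%) of all genes, and the median was 0.87. The median was 1.21 without and 0.75 with the drug. With the deposited values, on which 2 treated ischemic pools lie on a lower scale, the list's median was -0.11 and that of all genes tested -1.24.

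Fos, the core AP-1 subunit, lay between 11.28 and 12.72 (median 11.78) in non-ischemic and between 14.61 and 15.42 (median 15.22) in ischemic pools. The rise was 3.16 ± 0.28 (8.94-fold, adjusted p = 0.000694). Atf3, a stress-induced bZIP repressor, had the smallest adjusted p of all, 2.99e-05, on probe set 104155_f_at, with 8.97 to 10.01 (median 9.59) against 12.31 to 13.10 (median 12.80) and a rise of 3.16 ± 0.17. Its second probe set, 104156_r_at, passed only with 6 against 6 at 2.48 ± 0.34 (adjusted p = 0.00861). Egr1 rose by 1.88 ± 0.14, Nr4a1, an orphan nuclear receptor, by 1.85 ± 0.17, and Fosb by 1.88 ± 0.21. A second Egr1 probe set, 161802_i_at, stood at 0.18 with overlap.

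Junb, Jun, Klf4 and Ier2 joined them only when the arms were combined. So did the dimmer probe sets of Klf10 and of Nfil3, a gene outside that list, while their brighter ones did not pass. Junb, an AP-1 subunit, went from 10.92 to 11.51 (median 11.20) to 12.34 to 13.35 (median 12.71), a rise of 1.59 ± 0.21 (3.01-fold, adjusted p = 0.00713); a second probe set, 102363_r_at, stood at 1.89 with an adjusted p of 0.336. Jun went from 11.00 to 11.61 (median 11.34) to 12.33 to 12.79 (median 12.59), a rise of 1.26 ± 0.16 (2.40-fold, adjusted p = 0.00606). Both sets of pools stood clear of each other, and the arms of Jun agreed within 0.02 ± 0.31.

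Ier2, a short nuclear immediate early protein, lay between 9.69 and 10.94 (median 10.33) without and between 11.75 and 12.43 (median 12.24) with ischemia, a rise of 1.80 ± 0.24 (3.47-fold, adjusted p = 0.00789). Nfil3, a bZIP repressor, rose by 1.47 ± 0.19 (2.77-fold, adjusted p = 0.00757), from a median of 9.20 (8.71 to 9.64) to 10.65 (10.40 to 10.92). A second, brighter Nfil3 probe set, 101805_f_at, stood at 0.50 with overlap, 0.91 without and 0.09 with the drug. The zinc-finger factors were closer to the threshold: Klf4 rose by 1.26 ± 0.21 (adjusted p = 0.0331), from 9.66 to 10.30 (median 9.78) to 10.59 to 11.82 (median 11.20). Klf10, a TGF-beta early response gene, rose by 1.03 ± 0.16 on probe set 99603_g_at (adjusted p = 0.019). Its other, brighter probe set, 99602_at, at 0.87, had an adjusted p of 0.0752.

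Members of the list that did not pass included Egr2 at 0.87, Myc at 1.02, Klf6 at 0.79, Fosl1 at 0.82 and Nr4a2 at 0.14, with adjusted p from 0.329 to 1.00. Jund, the AP-1 subunit known for steady expression, stood at 0.31.

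Several genes known for feedback or growth arrest rose, among them Gadd45g, Gadd45b and Dusp1, while Gadd45a at 1.20 and the phosphatases Dusp6 at 1.02 and Dusp2 at 0.53 did not pass (adjusted p = 0.645, 0.326 and 1.00). Gadd45g, a p38-activating stress sensor, lay between 10.15 and 10.89 (median 10.57) in non-ischemic and between 12.16 and 12.84 (median 12.62) in ischemic pools, a rise of 1.99 ± 0.17 (3.96-fold, adjusted p = 0.000626) that passed in both arms. Its relative Gadd45b rose by 2.87 ± 0.30 on probe set 161666_f_at (adjusted p = 0.00236) and by 3.49 ± 0.52 on 102779_at (11.2-fold, adjusted p = 0.0146). The latter, the highest rise found only with all pools, had 3 of 6 non-ischemic pools at the floor, with 6.77 to 9.33 (median 7.42) against 10.71 to 11.99 (median 11.32). Where pools lie at the floor the fold is understated.

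Dusp1, the phosphatase that switches off p38 and JNK, went from 12.38 to 12.84 (median 12.57) to 13.29 to 13.93 (median 13.61). It rose by 0.98 ± 0.14 (1.97-fold, adjusted p = 0.0122), by 1.14 without and 0.81 with the drug. Ier3, a regulator of cell death under NF-kB signalling, rose by 1.20 ± 0.17 (adjusted p = 0.0121), from a median of 11.62 (11.39 to 12.11) to 12.95 (12.18 to 13.11), and its sides came within 0.1 log2 units at control pool 2 and treated ischemic pool 3.

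Btg1, an antiproliferative protein, had the smallest rise, 0.73 ± 0.12 (1.65-fold, adjusted p = 0.024), from 10.58 to 10.92 (median 10.75) to 11.35 to 11.64 (median 11.43). Phlda1, a pleckstrin-homology protein linked to cell death, rose by 1.20 ± 0.21 (adjusted p = 0.0462), from a median of 10.48 (10.32 to 10.98) to 11.59 (11.53 to 12.34). Phf13, a reader of methylated histone H3, was the last to pass, at 0.91 ± 0.16 (adjusted p = 0.0483). Just outside were Fkbp5, the prostaglandin synthase Ptgs2 at 1.61 and the second probe set of Socs3, 92232_at, at 1.46, all with an adjusted p of 0.0507.

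Among feedback genes already past without the drug were Socs3, the inhibitor of JAK-STAT signalling, at 1.49 ± 0.16 (adjusted p = 0.00252) and Rrad, a Ras-related GTPase, at 1.22 ± 0.15 (adjusted p = 0.00665). Of 19 tested immediate early effectors and feedback regulators 3 rose (Dusp1, Rrad and Ccn1), and the median was 0.38. Zfp36, which destabilises cytokine messages, stood at 1.06 (adjusted p = 0.0569). Of 26 tested genes for growth arrest, p53 targets and cell death 4 rose (Gadd45b, Gadd45g, Phlda1 and Btg1), while the p53 targets Cdkn1a and Mdm2 stood at 0.14 and 0.04, and the list's median was 0.15.

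Ccl2, Ccl3, Cxcl1 and Il1a were the 4 of 20 tested cytokines and chemokines that rose, and for all but Ccl3 some non-ischemic pools lay at the floor. Ccl2, which draws monocytes, lay between the floor of 6.77 and 9.27 (median 8.05) in non-ischemic pools, 1 of them at the floor, and between 10.81 and 12.38 (median 11.22) in ischemic pools. The sides were 1.5 log2 units apart, and the rise was 3.25 ± 0.42 (9.49-fold, adjusted p = 0.00713), by 3.38 without and 3.11 with the drug. Cxcl1, which draws neutrophils and carries the NF-kB letters printed above, went from 6.77 to 9.14 (median 8.69; 2 pools at the floor) to 10.61 to 12.33 (median 11.66). It rose by 3.36 ± 0.48 on probe set 95348_at (10.3-fold, adjusted p = 0.0121), by 3.83 without and 2.89 with the drug. A second Cxcl1 probe set, 95349_g_at, stood at 2.07 without overlap and with an adjusted p of 0.145.

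Il1a, the alarm cytokine interleukin-1 alpha, had 3 of 6 non-ischemic pools at the floor (median 6.92, highest 8.19) and lay between 8.47 and 9.70 (median 9.15) after ischemia. It rose by 1.86 ± 0.32 (3.64-fold, adjusted p = 0.0356). Ccl3, a chemokine of activated microglia and macrophages, was already past without the drug and rose by 1.87 ± 0.21 over both arms (adjusted p = 0.00334), from a median of 9.91 (8.82 to 10.11) to 11.50 (11.38 to 11.84). Cxcl2, at 1.92 (adjusted p = 0.0723), Ccl7 at 1.53 (0.181) and Il6 at 1.62 (0.166) did not pass.

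The list has 33 members on the array, and the median of 0.95 over the 20 tested depends on the filter on dim probe sets, since a gene dark in every non-ischemic pool is tested only if ischemic pools show it; with no filter the median was 0.21, and with median scaling 0.36.

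Icam1 and Cd14 passed only with all pools. Icam1, the endothelial ligand of leukocyte integrins, lay between 6.77 and 9.15 (median 7.67) in non-ischemic and between 9.18 and 10.30 (median 9.53) in ischemic pools. The highest non-ischemic pool stood just under the lowest ischemic one, and the rise was 1.82 ± 0.31 (3.53-fold, adjusted p = 0.0356). It was 2.42 without and 1.22 with the drug, and the difference between the arms had an unadjusted p of 0.0809. Cd14, the lipopolysaccharide co-receptor, went from 12.07 to 12.95 (median 12.30) to 13.35 to 13.63 (median 13.54), a rise of 1.12 ± 0.17 (2.17-fold, adjusted p = 0.0185).

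Of 28 tested NF-kB regulators and targets 4 rose: Icam1, Cd14, Nfkbiz, an atypical IkB protein, at 1.29 ± 0.17 (adjusted p = 0.00809), and Tnfaip6, a hyaluronan-binding protein, at 1.84 ± 0.25 (adjusted p = 0.00887). The median was 0.19, with the IkB-alpha gene Nfkbia at 0.10, Vcam1 at 0.32 and Sele at -0.23. None of 21 tested cytokine receptors and feedback genes, Socs3 among them, rose by its brightest probe set. Of 30 tested interferon response genes only Ifi207 rose, at 0.82 ± 0.13 on the family probe set 92251_f_at, with 4 non-ischemic pools at the floor, and the list's median was 0.32.

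Ccn1, Gjb2 and Procr rose as well. Ccn1, a matricellular ligand of integrins, went from 8.0 to 9.33 (median 9.05) to 10.47 to 11.92 (median 11.15), a rise of 2.26 ± 0.31 (4.78-fold, adjusted p = 0.00933) that was 2.29 without and 2.23 with the drug. Its relative Ccn2 stood at 0.26. Gjb2, the gap junction protein connexin 26, lay between 12.02 and 12.62 (median 12.43) without and between 13.24 and 13.81 (median 13.44) with ischemia, a rise of 1.08 ± 0.16 (2.11-fold, adjusted p = 0.0152). Procr, the endothelial protein C receptor, rose by 1.16 ± 0.15 (adjusted p = 0.00713) and had passed without the drug as well. Of 29 tested genes of matrix remodelling and coagulation control 2 rose, Procr and Tnfaip6, with a median of 0.23.

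Gstm5 and Aldh1a3 are weaker cases. The Gstm5 probe set 100631_r_at, named for a glutathione transferase, rose by 2.34 ± 0.41 (adjusted p = 0.0429), but the sides overlapped. All 3 drug control pools were at the floor, the 3 control pools lay between 8.34 and 11.01 and the ischemic pools between 9.75 and 11.61. Its arms stood at 1.16 and 3.53, the only one of the 25 whose arms differed at an unadjusted p under 0.05 (0.0159), and 3 further Gstm5 probe sets stood at 0.07, 0.09 and -0.17. Aldh1a3, which makes retinoic acid, was at the floor in all 6 non-ischemic and all 3 treated ischemic pools. Its call therefore comes from the untreated ischemic pools, which lay between 8.34 and 8.75, by their log2 mean 3.31-fold above the floor. Those 3 pools are the fewest with which the filter lets a probe set be tested. The floor gave its other 3 groups a spread of 0, so its standard error of 0.11 and its p are set in part by the floor. Aldh1a3 counts among the 45 rises although its difference in the drug arm was 0.

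**Figure D2:**
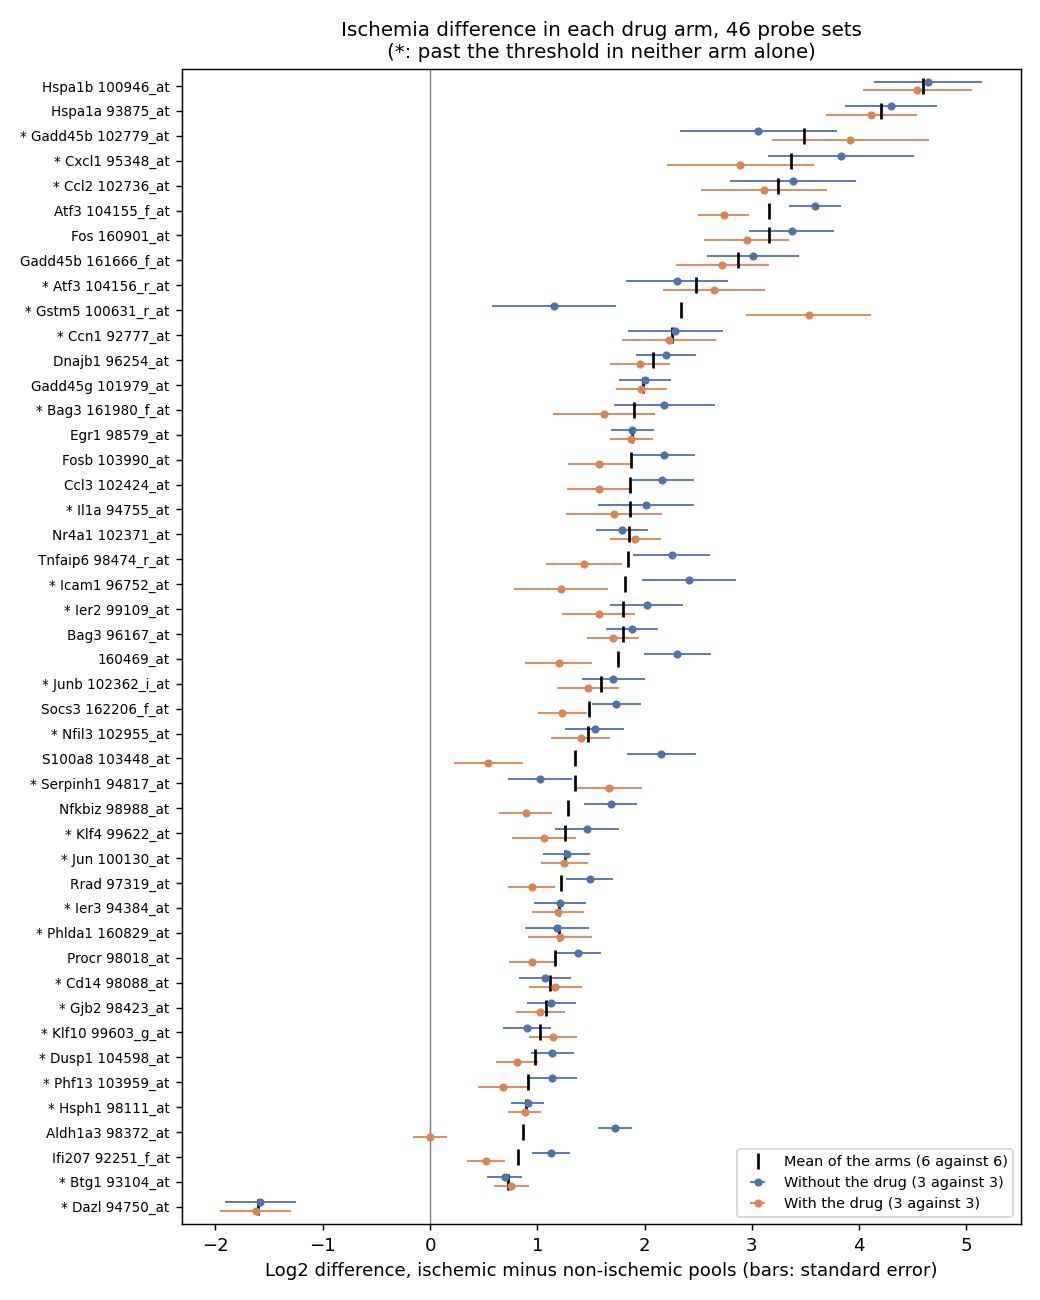
Ischemic minus non-ischemic log2 difference of the 46 probe sets past the threshold, in the arm without the drug (blue) and with it (orange), each with its standard error; the black tick is their mean and a star marks those past in neither arm alone. Dazl is the single probe set below 0, and Aldh1a3 lies at 0 in the drug arm.

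The difference between the arms was tested for each of the 10259 probe sets, and limma called none (213 had an unadjusted p under 0.05, and the smallest adjusted p was 0.155). Among the 46 calls, 7 had an unadjusted p under 0.05 for that difference. S100a8, a calcium-binding protein of neutrophils, stood at 2.15 without and 0.54 with the drug (limma, unadjusted p = 0.00511 and adjusted p = 1.00 for the difference). Atf3 104155_f_at rose by 3.59 without and 2.74 with the drug (unadjusted p = 0.0298). A call within 1 arm only is no sign that the arms differ, since none of these differences passed the adjustment. In the other direction, Gfpt2, a hexosamine pathway enzyme chosen here after its values were seen, was called without the drug at 1.67 but stood at -0.49 with it and was not called over both.

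Only 1 probe set fell. Dazl, an RNA-binding protein known from germ cells, lay between 8.15 and 9.24 (median 8.44) in non-ischemic pools and between 6.77 and 7.31 (median 6.80) in ischemic pools, 3 of them at the floor. It fell by 1.60 ± 0.23 (adjusted p = 0.0125), by 1.58 without and 1.63 with the drug. A second Dazl probe set, 160357_at, stood at 0.10 with overlap, so the fall belongs to 1 probe set and was not seen on the other.

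The next 4 by p value missed the threshold. Their sides did not overlap, which picking by p from the same values favours. In all, 28 lower probe sets without overlap missed the threshold. Fkbp5, a cochaperone that restrains the glucocorticoid receptor, lay between 12.87 and 13.23 (median 13.02) against 11.91 and 12.56 (median 12.35), a difference of -0.71 ± 0.13 (adjusted p = 0.0507). Drd2, the D2 dopamine receptor of striatal neurons, went from 11.33 to 11.72 (median 11.63) to 10.20 to 11.24 (median 10.64), at -0.88 ± 0.18 (adjusted p = 0.0901). Rasgrp2, a Rap activator enriched in striatum, stood at -1.05 ± 0.23 (adjusted p = 0.145), and Aebp2, a Polycomb cofactor, at -0.57 ± 0.13 (adjusted p = 0.191).

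**Figure D3:**
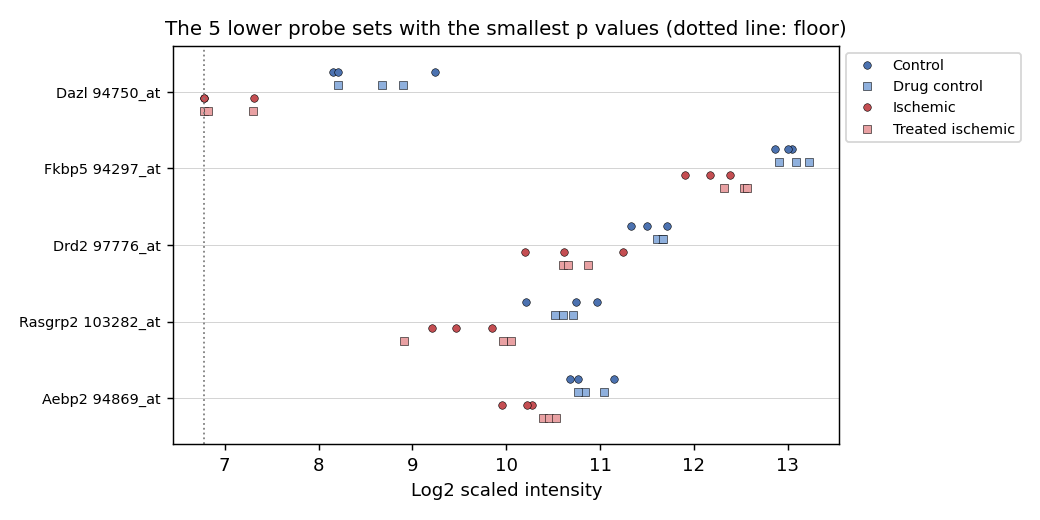
Log2 scaled intensity of the 5 lower probe sets with the smallest p values, 1 point for each of 12 pools, coloured by group, with the floor of 6.77 dotted. Only Dazl passed the threshold. In all 5, picked by p from these same values, the ischemic pools lie below every non-ischemic pool.

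Striatal markers had the lowest median of the 38 lists. All 10 tested genes of the striatal neuron list were lower in the ischemic pools on the rescaled arrays, against 3530 of all 7280 genes. None of the 10 passed the threshold, and their median was -0.51, with -0.45 without and -0.59 with the drug. Under the other settings run on rescaled arrays the median lay between -0.55 and -0.42. Pdyn, Penk and Tac1, which encode striatal neuropeptides, stood at -0.52, -0.54 and -0.40, and Foxp1 and Pde1b at -0.50 and -0.54. The summed intensity of all 10 was 76677 to 89002 in the non-ischemic and 45442 to 71738 in the ischemic pools. Much of this sum is Penk, which lay between 15.38 and 15.78 in the non-ischemic pools and did not pass. In pooled tissue fewer cells of a type and less RNA per cell cannot be told apart, and neither can a change in the share of striatum dissected.

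Other neuronal lists stood lower by less. Receptors for glutamate and GABA had a median of -0.19 with 17 of 23 lower, ion channels -0.18 with 21 of 28 lower, synaptic vesicle genes -0.20 with 16 of 21 lower, and cortical and hippocampal markers -0.19 with 13 of 19 lower. None of their members passed. Kcna5, a potassium channel subunit, was the lowest named channel at -1.66 (adjusted p = 0.245), and the beta subunit Kcnab1 stood at -0.55 (0.218). General neuronal markers had a median of -0.08 with 17 of 23 lower. Over all genes tested the median was 0.01, with 3530 of 7280 lower.

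**Figure D4:**
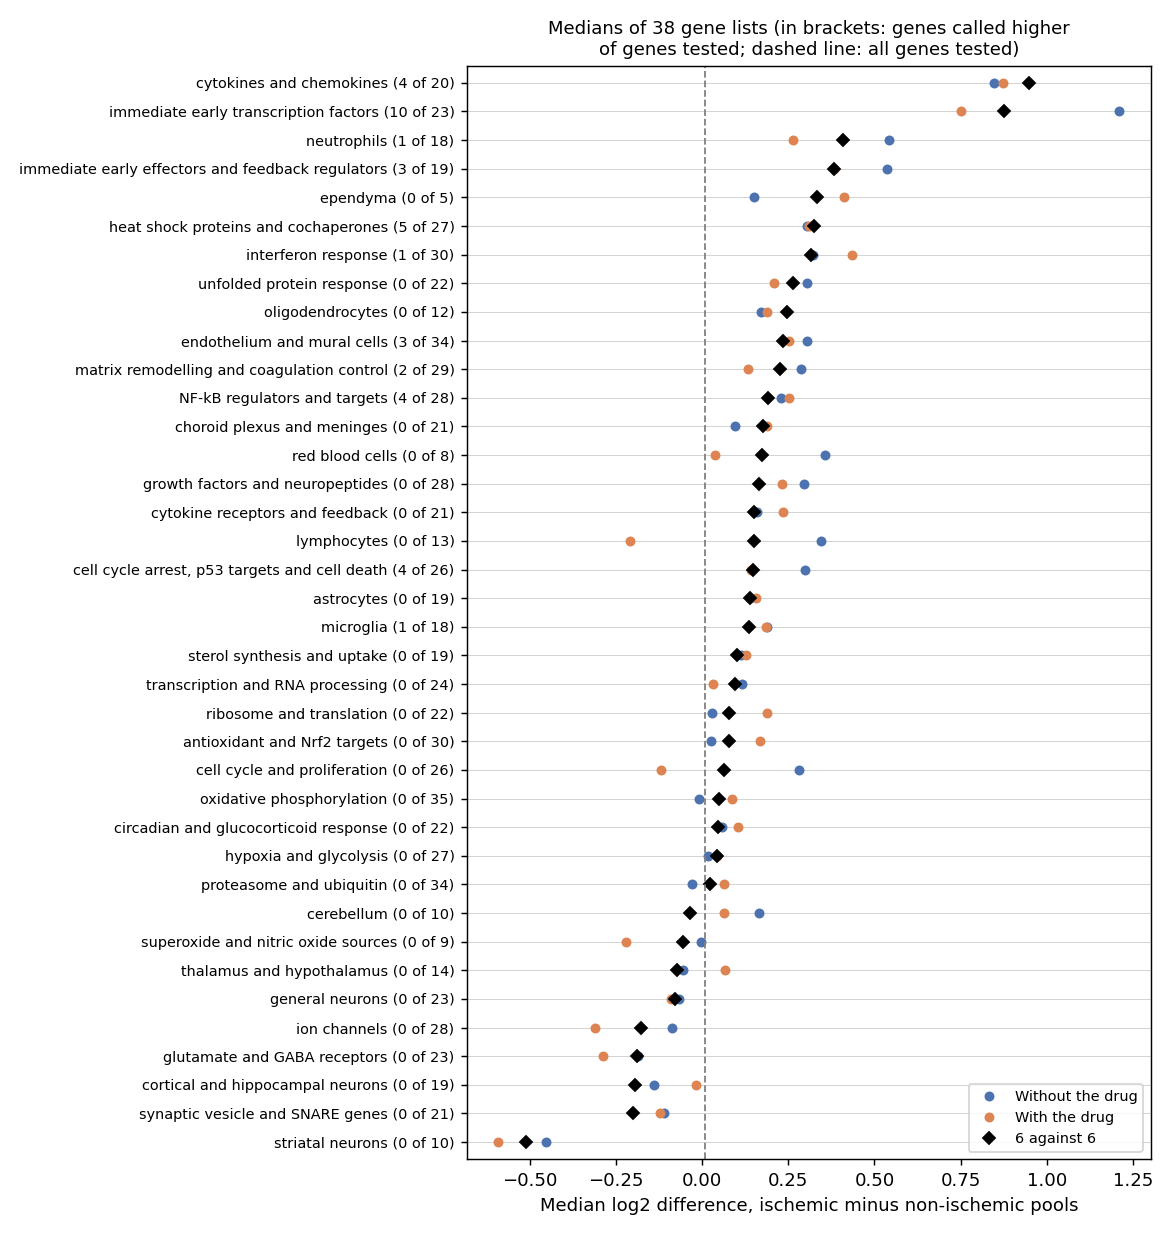
Median log2 difference of 38 gene lists by the brightest probe set of each gene, for 6 against 6 pools (black) and for each arm (blue without, orange with the drug), on rescaled arrays; the dashed line is the median of all genes tested. Immediate early transcription factors stand at 0.87 and striatal neurons lowest at -0.51; cytokines and chemokines, at 0.95, drop to 0.21 with no filter on dim probe sets.

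Cell type markers checked the tissue and gave what moved beside the rises. All 6 neuronal, 4 astrocytic and 4 oligodendrocytic markers on the array were above the floor in all 12 pools. So were the 3 choroid plexus markers and the 3 cerebellar ones, Pcp2, Cbln1 and Zic1 (non-ischemic medians 11.73, 10.72 and 13.14). Whether the pools held tissue from outside the artery territory was not tested. The microglial marker Aif1 and the neutrophil marker Ngp were at the floor in all 12 pools. Of 18 tested neutrophil genes only S100a8 rose (1.35 ± 0.23, adjusted p = 0.0331, sides overlapping), the median was 0.41, and summed intensity was 13198 to 20188 without and 14762 to 20735 with ischemia. Of 34 endothelial and mural genes Icam1, Procr and Klf4 rose, 22 were higher and 12 lower, and the median was 0.23. Summed intensities were 36726 to 44610 without and 44248 to 51278 with ischemia. The endothelial markers of the tissue check did not pass, with Pecam1 and Cdh5 at -0.19 and -0.07, Tek at 0.47, Flt1 at 0.29 and Cldn5 at 0.15. Of 18 microglial genes only Cd14 rose, 12 were higher and 6 lower, and the median was 0.14. Over all 7280 genes tested 3750 were higher, 3530 were lower and 37 (0.508%) rose. Cx3cr1 and C1qa stood at -0.02 and -0.03, and Lyz2 and Cd68 at 0.99 and 0.46 without passing. Haemoglobin stood higher without passing, Hbb-b2 at 2.23 (adjusted p = 0.0626) and Hba-a1 at 1.25 (0.221), with red cell sums of 20454 to 23179 and 20027 to 30979. The part of blood, vessel or leukocyte RNA in the rises was not tested.

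The arrays carry no read depth, and their number limits the precision. Between 24.5% and 26.5% of values lay at the floor of a pooled array. The 3'/5' signal ratio of actin, a sign of RNA integrity, was 1.16 to 2.14 (median 1.49) in non-ischemic and 1.17 to 1.70 (median 1.43) in ischemic pools. The third principal component, 8.69% of the variance, followed ischemia (80.4% of its spread), whereas the first and second (30.6% and 19.5%) followed the replicate number more than ischemia.

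Treated ischemic pools 2 and 3 were deposited on a lower scale than the other 10 pools, so part of the drug arm rests on the rescaling. With the scale as a block, which leaves treated ischemic pool 1 alone to stand for its group and assumes it varies like the others, 16 rises and 3 falls passed, Dazl not among them. Of the 25 found only with all pools, Ier2 alone stayed past (1.96, adjusted p = 0.0453), and all 25 kept their direction. Without the 2 pools whose title and description differ, 22 rises and no fall passed, and 5 of the 25 did: Jun, Ccl2, the Atf3 probe set 104156_r_at, Icam1 and Ier2.

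Leaving out 1 pool at a time left 29 of the 46 calls past the threshold in all 12 fits, and 11 of the 25 found only with all pools: Ccl2, Ccn1, Cxcl1, Dusp1, Hsph1, Ier2, Ier3, Jun, Junb, Nfil3 and Atf3 104156_r_at. Dazl missed it without ischemic pool 1 (adjusted p = 0.0551). Gadd45b 102779_at missed it without ischemic pool 1 or 2 or treated ischemic pool 2 or 3 (up to 0.0605), and Gjb2 without control 2, drug control 3 or ischemic 1 or 2 (up to 0.065). Cd14 missed it without control 2, drug control 2 or 3, ischemic 1 or 2 or treated ischemic 1 or 2 (up to 0.0745), and Serpinh1 without control 2 or 3, drug control 2 or 3 or any ischemic pool not given the drug (up to 0.0814).

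The rest of the 25 passed in fewer than 5 of the 12 fits. Klf10 passed only without control 1, drug control 2, ischemic 2 or treated ischemic 2 (otherwise up to 0.0779), and Klf4 only without control 2, drug control 2, ischemic 3 or treated ischemic 1 (up to 0.112). The second Bag3 probe set passed only without drug control 2 or 3 or ischemic 3 (up to 0.139), Il1a only without control 3 or drug control 1 (up to 0.117), and Gstm5 only without control 2 or 3 (up to 0.139). Btg1 passed only without ischemic 3 (up to 0.0928), Icam1 only without drug control 1 (up to 0.117) and Phf13 only without drug control 2 (up to 0.159). Phlda1 passed in none of them (up to 0.144). Among the calls also made within an arm, S100a8 passed only without control 3, ischemic 3 or treated ischemic 1 (up to 0.112), and Ifi207 only without control 3, drug control 1, ischemic 3 or treated ischemic 3 (up to 0.0745). All 46 kept their direction in each of these fits that tested them; Aldh1a3 was tested in 9 of the 12.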

How the data were processed

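Each deposited value is the linear intensity of a probe set on an array, some of them below 0. Software, scaling and background steps of the authors: not given in the sources used here. On 10 of 17 arrays the mean after trimming 2% of values at each end was 2500, and on 7 it was lower. Each array was multiplied to a trimmed mean of 2500, values under 109.5 (the 25th percentile of the pooled arrays) were raised to it, and values were taken to log2. The 66 array controls were left out, and 10259 probe sets with a value over the floor in 3 or more of 12 pools were tested.

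A model with a mean for each of 4 groups was fitted with limma 3.58.1 (lmFit, eBayes) in R 4.3.3, with 8 residual and 2.23 prior degrees of freedom, after a check on simulated data. The ischemia effect is the mean of the arms' ischemia differences, with two-sided p values and Benjamini-Hochberg adjustment at 0.05 over all probe sets tested. Folds are 2 to the power of a log2 difference. Nothing says that pools of a group came from separate batches of animals, so p values cover the spread between pools, which may be technical. Gene symbols are those of the platform annotation, updated where possible; 10855 probe sets pair with 1 symbol, 396 with several and 1237 with none.

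Genes were named by rule: the largest rises and falls past the threshold with 1 symbol, those past only with 6 against 6, the 5 lower probe sets with the smallest p values, and up to 4 members of each of 38 lists with the smallest p values. List members were counted by their brightest probe set; members named beside these were chosen after their values were seen. The members and lists were chosen with earlier results of these data known. Alternatives changed the scaling, floor, filter, model, labels and pools. Replicate numbers 1 to 3 recur in every group, with nothing in the labels on what they stand for.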

Additional observations from a re-analysis of the deposited data

Results flagged for a closer look

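In 37 probe sets, each side of 6 pools was checked for 1 pool far from the other 5 by Dixon's criterion. It marked 4 of 74 groups, where chance marks about 1 in 20. Gadd45b, probe set 161666_f_at, was at 7.95 in control pool 3, below the other non-ischemic pools at 9.16 to 9.83. Ier3 was at 12.11 in control pool 2, above the others at 11.39 to 11.63, and at 12.18 in treated ischemic pool 3, below the others at 12.85 to 13.11. Phf13 was at 10.05 in drug control pool 2, above the others at 9.23 to 9.47. None of the probe sets checked had every pool of 1 arm moving against every pool of the other.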

How the results depend on the processing

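All alternatives were planned. Of the 25 probe sets found only with all pools, 14 stayed past with median scaling and 18 with quantile normalization, and all 25 kept their direction. With median scaling, Hsph1 and Icam1 (both limma adjusted p = 0.0948), Cd14 and Serpinh1 (both 0.12), Klf4 (0.137) and Gjb2 (0.158) were among those that missed. Against 45 rises and 1 fall, counts ran as follows where they moved by over 1.5 times. The fall count was 2 with median scaling, the 10th percentile floor, the filter on 6 arrays, the additive model, the trend prior or groups from descriptions, 3 with the 40th percentile floor, 4 with no filter and 0 with the generalized log2. Under these settings Fkbp5, Drd2, Kcna5, Pde4dip, Cacna2d3 and 1 probe set with no symbol were added, and Dazl was not called with the 40th percentile floor or the generalized log2. Falls found only with 6 against 6 numbered 2 (median scaling, 10th percentile floor, filter on 6 arrays, additive model, trend prior, descriptions), 3 (40th percentile floor, no filter) or 0 (generalized log2); 15 rises were found only so with groups from descriptions, against 24.

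Without the drug, 22 calls became 13 with quantile normalization, 11 with median scaling and 11 without the 2 unlike-labelled pools; with the drug, 9 became 16 with the 40th percentile floor and 3 without those pools. Without those pools the main counts were 22 and 0, and 12 rises and 0 falls were found only with all pools. With no filter 1 difference between arms passed. Array weights gave 68 rises, 8 falls, 60 and 14 calls by arm and 5 falls found only so. The scale block gave 16 rises, 3 falls, 1 call with the drug, and 1 rise and 2 falls found only so.

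With the replicate block, 63 rises, 2 falls and 35 calls without the drug passed. Same-numbered pools of the control, drug control and ischemic groups deviated together (correlations 0.33 to 0.57), those of treated ischemic pools did not always (-0.34 to 0.40), so the numbers were not read as a pairing.

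Leaving out 1 pool gave 30 to 42 rises, 0 to 3 falls, 1 to 25 and 1 to 12 calls by arm, 0 to 0 differences between arms, and 16 to 35 rises and 0 to 3 falls found only so. Without the drug 1 call was left without ischemic pool 1 or 3, 5 without ischemic pool 2, and 7 and 9 without control pools 2 and 1. With it 1 was left without drug control pool 3 or any treated ischemic pool, and 5 without drug control pool 2 or ischemic pool 1.

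With the values as deposited, 0 rises, 0 falls, 0 calls without and 6935 with the drug passed, and 0 rises and 0 falls were found only so; the median of all probe sets was -1.20. There 14 rises turned sign: Jun -0.0526, Phf13 -0.41, Dusp1 -0.34, Phlda1 -0.12, Btg1 -0.59, Ier3 -0.11, Rrad -0.10, Procr -0.15, Cd14 -0.20, Hsph1 -0.42, Gjb2 -0.24, Nfkbiz -0.0275, Klf10 -0.29 and Klf4 -0.0521. Signals near the floor, as in Il1a, Ifi207, Dazl and Aldh1a3, carry the least information.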

Other observations

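The lists for oligodendrocytes, astrocytes, and choroid plexus and meninges had medians above that of all genes, with no member past the threshold. Oligodendrocyte genes had a median of 0.25 with 10 of 12 higher, among them Mog at 0.50 and Mobp at 0.33. The lower ones were Pdgfra at -0.78 and Mag at -0.07. Astrocyte genes had a median of 0.14 with 16 of 19 higher, among them the glutamate transporter Slc1a2 at 0.52 and the water channel Aqp4 at 0.42. The lower ones were Atp1b2 at -0.36, Fgfr3 at -0.23 and Gfap at -0.09. Choroid plexus and meningeal genes had a median of 0.18 with 18 of 21 higher. Of all genes tested 3750 of 7280 were higher. Metabolic and housekeeping lists lay near the median of all genes (0.01): oxidative phosphorylation at 0.05, hypoxia and glycolysis at 0.04, ribosome and translation at 0.08 and the proteasome at 0.02. Antioxidant and Nrf2 targets had a median of 0.08, with Hmox1, haem oxygenase, at 0.66 and the thioredoxin reductase Txnrd1 at 0.29.

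The 5 single treated ischemic brains belong to no comparison here, and their values are given beside the pools with no test. Hspa1a lay between 16.03 and 16.48 in them (median 16.28), Fos between 14.48 and 15.23 (median 14.73) and Atf3 104155_f_at between 11.86 and 13.17 (median 12.45). Junb lay between 13.19 and 13.56, Cxcl1 95348_at between 10.07 and 11.07, Hsph1 between 14.91 and 15.53, and Dazl between 6.77 and 7.95. Drd2 lay between 10.24 and 10.95 and Fkbp5 between 12.56 and 13.02. The highest Dazl value, in single brain 13, was above every ischemic pool (highest 7.31). Fkbp5 reached into the range of the non-ischemic pools.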
